A study of Mus musculus with 20 samples.

Results

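Anti-CD3 activation of control OT-I cells given vehicle was examined by setting 2 activated libraries against 2 resting libraries, chosen by their sample titles from the 20 libraries of the series. All genes were considered. OT-I cells are CD8 T cells of a mouse that carries a transgenic T cell receptor for an ovalbumin peptide, here with Cas9. The series holds 10 groups of 2 libraries, 8 libraries from B16F10 melanoma cells and 12 from OT-I cells, with thapsigargin (TG, a blocker of the SERCA calcium pumps) or vehicle, and with gene knockouts.

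The activated group was control genotype, DMSO vehicle for 8 hours, and 24 hours on a plate coated with anti-CD3 at 2.5 µg/mL. The resting group was control genotype with the same vehicle for 8 hours and no anti-CD3. Both groups share the Cas9 background, the control construct named only as Ctrl, and a maintenance culture in puromycin with IL-2 (10 ng/mL), IL-7 (0.5 ng/mL) and IL-15 (1 ng/mL). The activated and resting groups that received TG at 50 ng/mL, also control genotype and 2 libraries each, are used only where stated. The labels give neither the age of the mice, nor how many mice or clones the cells came from. The labels also do not say when vehicle was added relative to the plate, nor whether IL-2, IL-7 and IL-15 were present on it. They do not say whether the 2 libraries of a group were separate cultures, so p-values measure the spread between these libraries, which may be technical.

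In a T cell, anti-CD3 cross-links the CD3 chains that carry the signal of the T cell receptor. The kinases LCK and ZAP70 then start calcium release, diacylglycerol signalling and the MAP kinase cascade, which bring NFAT, NF-kB, AP-1, EGR and NR4A factors into action. In CD8 T cells this programme is known for cytokine and chemokine secretion, for granzymes and perforin, for growth in mass driven by MYC, and for the loss of quiescence genes.

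Sequencing depth was 17462770 and 13521582 counts in activated libraries, against 12799661 and 11028101 counts in resting libraries. Values are given as CPM, that is counts scaled to the effective library size, and tests are edgeR's quasi-likelihood test on the counts with Benjamini-Hochberg adjustment over 13432 tested genes. A number in parentheses after a gene symbol is its log2 change, activated minus resting, and genes said to have risen or fallen had an adjusted p below 0.05. Values are relative to the RNA of the whole sample, so fewer cells of a type and less RNA per cell cannot be told apart. Markers of CD8 T cells were high in both groups, with Cd8a at 617 and 634 CPM in activated cells, against 653 and 649.6 CPM in resting cells. Foxp3 had 0 counts in activated and 12 counts in resting libraries, and Cd4 stayed under 1.1 CPM in all 4 libraries.

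Markers of other cells were low. Of 12 myeloid markers 6 had no count in any of the 4 libraries, among them C1qa, S100a8 and Csf3r, and the summed list was 0.641 and 0.757 CPM in activated, against 3.30 and 3.42 CPM in resting libraries. The 10 B cell markers summed to 29.0 and 32.0 CPM in activated, against 147.8 and 138.5 CPM in resting libraries. Nearly all of that sum was Ighm, which encodes the constant region of IgM, while Ms4a1 and Cd22 had no count. The 10 dendritic cell markers summed to 88.4 and 83.7 CPM in activated, against 28.6 and 28.7 CPM in resting libraries, led by Cd74 and by H2-Ab1, with Clec9a, Siglech and Cd209a at 0. The 10 NK cell markers summed to 161 and 166 CPM in activated, against 314 and 316 CPM in resting libraries, most of it Eomes and Klrk1, which CD8 T cells also express, with Ncr1 at 0. The 7 markers of CD4 and regulatory T cells summed to 584 and 579 CPM in activated, against 282 and 296 CPM in resting libraries, most of it Ctla4. The 7 melanoma markers summed to 5.07 and 7.27 CPM in activated, against 5.31 and 5.54 CPM in resting libraries. The 8 stromal markers summed to 10.1 and 10.8 CPM in activated, against 0.482 and 0.646 CPM in resting libraries, nearly all of it Lum, with Col3a1, Dcn and Pdgfra at 0. The 9 red cell and platelet markers summed to 2.86 and 3.71 CPM in activated, against 1.29 and 2.31 CPM in resting libraries, with 6 of them at 0. The part of other cells in the results below was not tested beyond these values.

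Activation changed most of the measured transcriptome. At an adjusted p below 0.05, 4740 genes (35.3%) were higher and 5250 genes (39.1%) were lower in activated cells. By 2-fold or more, 1639 genes (12.2%) were higher and 2116 genes (15.8%) were lower. The median log2 change over all tested genes was -0.04, and its median size without the sign was 0.58. By 8-fold or more, 298 genes were higher and 336 were lower. Of the called genes, 44 were at 10 CPM or more in activated cells and under 1 CPM in resting cells, and 38 were the other way round. By their CPM the activated and resting libraries did not overlap in 85.9% of all tested genes, so a gene without overlap is the common case here.

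**Figure D1:**
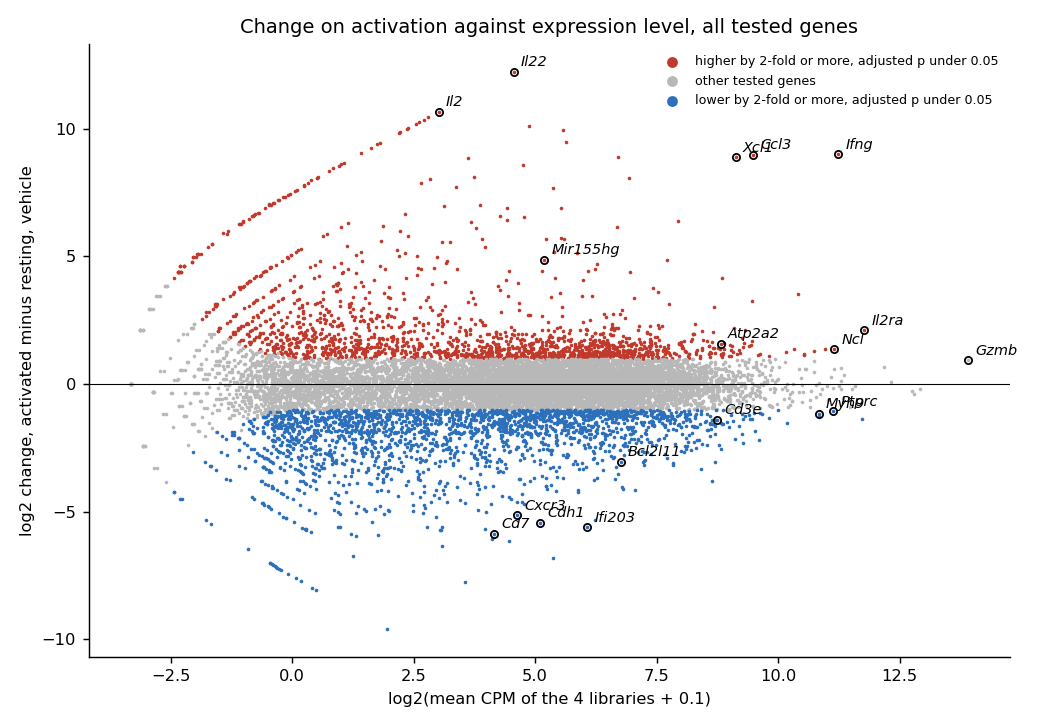
Log2 change (activated minus resting, y axis) against log2 of the mean CPM of the 4 libraries plus 0.1 (x axis) for the 13432 tested genes, each point a gene; genes called at 2-fold or more are red (1639 higher) or blue (2116 lower). Ifng, Ccl3 and Xcl1 are far up on the right, where levels are high; the slanted lines at the left are genes with 0 to 3 counts in a group, whose fitted change depends on the prior count.

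The largest rises were in secreted proteins. Of the 15 genes with the largest rise at 10 CPM or more, 11 encode cytokines, chemokines or the activin subunit Inhba, and the others were Stra6, Slc1a2, Lum and Lad1. Il22, the cytokine of barrier immunity, was at 49.7 and 44.1 CPM in activated cells, against 0 CPM in both libraries of resting cells. With no count in resting cells, it was at least 367-fold higher when 3 counts over the 2 resting libraries are taken as the floor. On the same basis Il2, the growth factor of T cells, was at least 124-fold higher, with 16.2 and 15.7 CPM in activated cells, against 0 CPM in both libraries of resting cells. Il6 and Il21 also had no count in resting cells, at least 99.9-fold and 88.4-fold higher. Il1a was at least 78.7-fold higher, and Il9, below 10 CPM, at least 7.92-fold higher.

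Ifng, the type II interferon (chr10:118441046-118445892, GRCm38), had the largest gain in CPM of all genes after Gzmb. It was at 4712 and 4874 CPM in activated cells, against 9.01 and 9.79 CPM in resting cells (log2 change 9.0 ± 0.051 SE, adjusted p = 4.3e-71). The means differed by 510.0-fold, and the 2 libraries of each group lay close together. Il3, a growth factor for blood progenitors, was at 201 and 213 CPM in activated cells, against 0.0804 and 0.831 CPM in resting cells (log2 change 8.88 ± 0.13 SE, adjusted p = 2.3e-37). Its resting level rests on few counts, and the log2 change was 7.95 without the first resting library and 11.17 without the second. Csf2, which encodes GM-CSF, was at 81 and 80.03 CPM in activated cells, against 4.1 and 4.89 CPM in resting cells (log2 change 4.17 ± 0.095 SE, adjusted p = 1.7e-41). Both activated libraries were above both resting libraries for Il3 and for Csf2, and 85.9% of all tested genes likewise had no overlap.

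The rise was not uniform over the cytokines. Of 24 tested secreted cytokines 20 rose and 3 fell, with a median log2 change of 1.74, which is the same with the genes without a resting count at their bounds. Il13 rose to 90.2 and 91.6 CPM in activated cells, against 2.01 and 1.39 CPM in resting cells, and Il10, which restrains inflammation, to 308 and 304 CPM in activated cells, against 61.6 and 61.4 CPM in resting cells. Tnf was at 117 and 111 CPM in activated cells, against 90.4 and 81.5 CPM in resting cells (log2 change 0.41 ± 0.050 SE, adjusted p = 2.3e-10). That is a small change beside those of Ifng and Il3, over a resting level that was already above 80 CPM. Ltb, the membrane anchor of lymphotoxin, fell to 32.1 and 31.9 CPM in activated cells, against 261 and 268 CPM in resting cells. Il16 fell to 39.9 and 41.2 CPM in activated cells, against 255 and 247 CPM in resting cells, and Csf1, the macrophage growth factor, to 6.41 and 6.51 CPM in activated cells, against 17 and 20.1 CPM in resting cells. Il4 was not called, at 0.991 and 0.606 CPM in activated cells, against 1.13 and 1.85 CPM in resting cells.

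Of 13 listed chemokines 9 passed the filter and were tested. All 9 tested chemokines rose, with a median log2 change of 7.34, or 6.39 with Ccl22, which had no resting count, at its bound. Ccl3, a chemokine that attracts leukocytes to inflamed tissue, was at 1403 and 1446 CPM in activated cells, against 2.01 and 3.69 CPM in resting cells (log2 change 8.99 ± 0.073 SE, adjusted p = 4.5e-53). Xcl1, which draws cross-presenting dendritic cells, was at 1109 and 1115 CPM in activated cells, against 1.69 and 3.05 CPM in resting cells (log2 change 8.9 ± 0.073 SE, adjusted p = 5.9e-62). Ccl4 was at 472 and 497 CPM in activated cells, against 5.23 and 6.37 CPM in resting cells (log2 change 6.39 ± 0.065 SE, adjusted p = 4.3e-58). For these 3 genes the resting libraries held a few CPM, far below the activated libraries. Ccl5, a chemokine of memory and effector CD8 T cells, was already present and was at 133 and 131 CPM in activated cells, against 11.7 and 12.1 CPM in resting cells (log2 change 3.47 ± 0.074 SE, adjusted p = 5.6e-43). Ccl1, the CCR8 ligand, was at 83.1 and 79.7 CPM in activated cells, against 0.402 and 0.369 CPM in resting cells. Ccl9 had 3 counts in the resting libraries, and the 95% exact counting interval of the ratio was 261 to 3705. Intervals and floors of this kind cover counting error only. The whole chemokine list made up 0.325% and 0.329% of counts in activated, against 0.00217% and 0.00263% of counts in resting libraries.

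**Figure D2:**
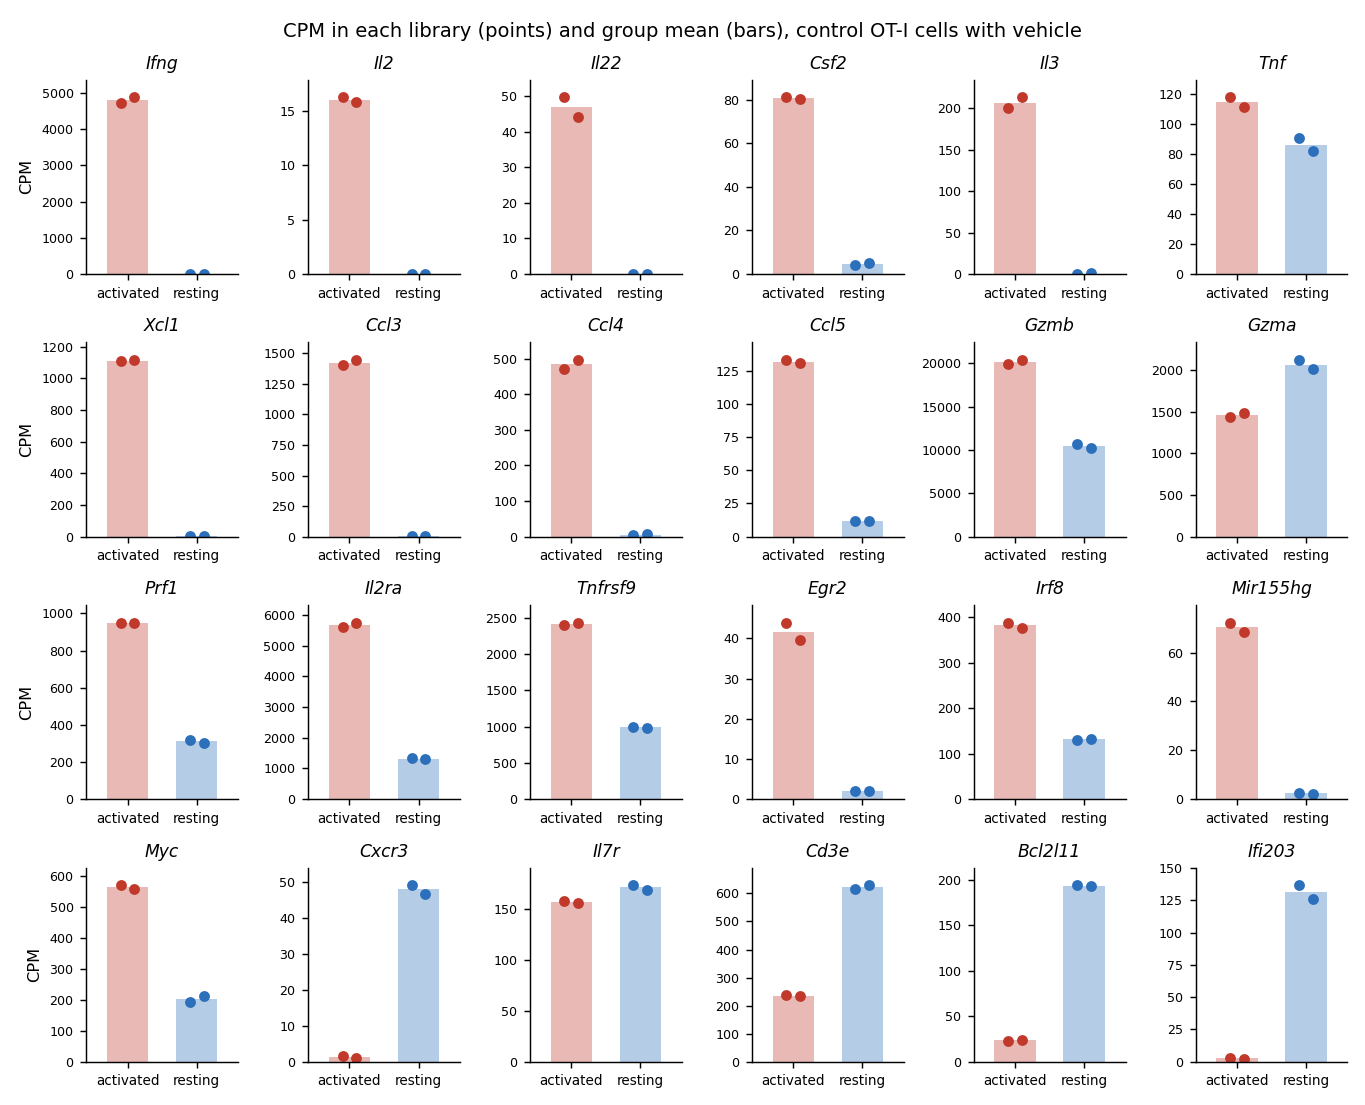
CPM (y axis, from 0) of 24 genes in the 2 activated (left, red) and 2 resting (right, blue) libraries; points are libraries and bars are means of 2. The cytokine and chemokine genes in the upper rows are low in resting cells except Tnf, while Gzmb, Gzma and Tnfrsf9 were already high there.

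Granzymes and perforin did not follow the cytokines. Gzmb, the serine protease that triggers death of target cells (chr14:56258838-56262260), was at 19872 and 20390.3 CPM in activated cells, against 10692 and 10247 CPM in resting cells (log2 change 0.94 ± 0.029 SE, adjusted p = 3.5e-35). It took 1.95% and 1.99% of all counts in activated libraries, against 1.04% and 1.01% in resting libraries. Per kilobase of exon it was the highest of all tested genes in both groups, at 14019 CPM per kb in activated and 7291 CPM per kb in resting cells. Prf1, which encodes the pore-forming perforin, was at 947 and 950.3 CPM in activated cells, against 319 and 304 CPM in resting cells (log2 change 1.61 ± 0.035 SE, adjusted p = 2.8e-42). Gzma, by contrast, was lower, at 1434 and 1482 CPM in activated cells, against 2122 and 2009.6 CPM in resting cells (log2 change -0.5 ± 0.033 SE, adjusted p = 4.4e-20). The resting cells thus already carried the transcripts of a cytotoxic T cell.

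Over the 24 tested genes of the cytotoxic granule and death ligands, 13 (54.2%) rose and 11 (45.8%) fell, with a median log2 change of 0.23. Over all tested genes 35.3% rose and 39.1% fell. The serpin genes that shield a cell from its own granzymes rose most. Serpinb9, an inhibitor of granzyme B, was at 2468 and 2515 CPM in activated cells, against 225 and 207 CPM in resting cells (log2 change 3.53 ± 0.038 SE, adjusted p = 2.4e-57). Its relatives Serpinb9b (6.17) and Serpinb6b (3.26) also rose. Stx11, a syntaxin of granule release, rose (2.11), as did Gzmc (1.35). Gzmk, a low transcript, was at 1.05 and 0.379 CPM in activated cells, against 7.4 and 5.82 CPM in resting cells (log2 change -3.12 ± 0.29 SE, adjusted p = 3.3e-14), and its log2 change was -4.09 without the first activated library. Ctsw, a protease of cytotoxic cells, fell to 65.6 and 65.2 CPM in activated cells, against 315 and 289 CPM in resting cells. The granzymes other than Gzma, Gzmk and Gzmm are related neighbouring genes, and some of them are near-copies. Reads that match several of these near-copies may be missing from their counts.

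Levels per kilobase of exon placed these genes among all others. Ifng was at 3701 CPM per kb in activated cells, second only to Gzmb, and at 7.26 CPM per kb in resting cells, at rank 6151 of the tested genes. Xcl1 was at rank 8 in activated and rank 7627 in resting cells. Ccl3 was at rank 13 in activated and rank 8195 in resting cells. Gzma moved little, at rank 17 in activated and rank 9 in resting cells. Nkg7, a granule membrane protein gene, was at rank 35 in activated and rank 29 in resting cells.

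**Figure D3:**
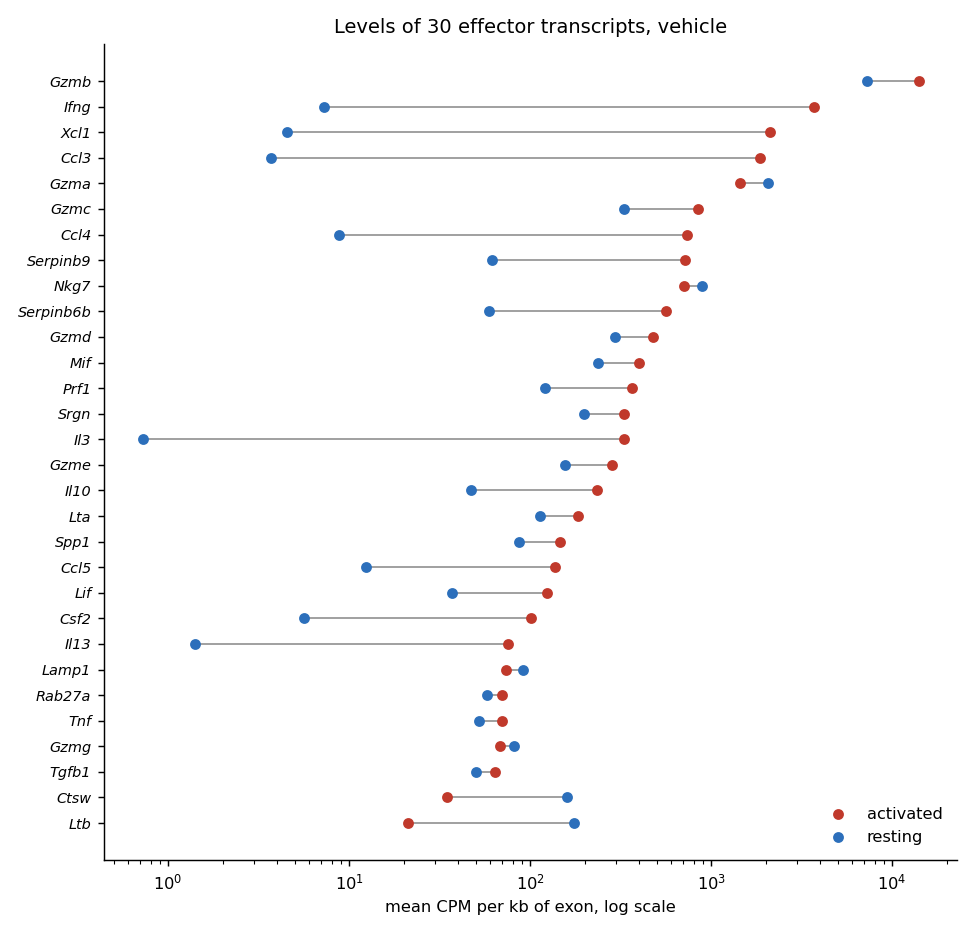
Mean level (CPM per kb of exon, log scale, x axis) of the 30 effector transcripts with the highest level in either group, activated in red and resting in blue, means of 2 libraries joined by a line per gene. Ifng, Xcl1, Ccl3 and Il3 span more than 2 orders of magnitude, and Gzmb, Gzma, Nkg7 and Lamp1 move by less than 2-fold.

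After Gzmb and Ifng the gains were in Il2ra, Serpinb9, Hsp90ab1, Ncl, Ccnd2, Tnfrsf9, Ccl3 and Npm1. Hsp90ab1, a cytosolic chaperone, was at 5652 and 5808 CPM in activated cells, against 3642 and 3528 CPM in resting cells (log2 change 0.68 ± 0.031 SE, adjusted p = 2.6e-27). The losses were led by Vim, which encodes the intermediate filament vimentin, at 1892 and 1866 CPM in activated cells, against 4884 and 4865 CPM in resting cells (log2 change -1.38 ± 0.040 SE, adjusted p = 2.3e-22). Tmsb4x, which encodes an actin-binding thymosin, was at 1925 and 2044 CPM in activated cells, against 3758 and 3692 CPM in resting cells (log2 change -0.91 ± 0.045 SE, adjusted p = 3.6e-13). Myh9 (-1.16), which encodes non-muscle myosin, Coro1a (-1.52), an actin regulator, and Actb (-0.2) fell too, as did Laptm5 (-1.28) and Ifitm1 (-2.18).

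Genes of the receptor complex and its proximal signalling fell. Of 12 CD8 T cell markers 10 fell and 0 rose, with a median log2 change of -0.71. Cd3e, a signalling chain of the receptor complex, was at 239 and 233 CPM in activated cells, against 615 and 629 CPM in resting cells (log2 change -1.4 ± 0.036 SE, adjusted p = 7.0e-39). Cd3g (-1.56), Trbc2 (-1.42) and Cd3d (-1.18) fell alike. Thy1 and Cd8a were not called, with log2 changes of 0.05 and -0.06. The OT-I beta chain segment Trbv12-1 was at 56.4 and 57.2 CPM in activated cells, against 240.0 and 227 CPM in resting cells. Of 11 listed OT-I receptor V segments 2 were tested and 4 had no count. The list summed to 57.1 and 58.2 CPM in activated, against 242.5 and 229.1 CPM in resting libraries, nearly all of it Trbv12-1. The tested alpha chain segment, Trav14-1, was barely counted, at 0.233 and 0.303 CPM in activated cells, against 1.45 and 0.831 CPM in resting cells.

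Of 28 genes of receptor-proximal signalling 22 fell and 4 rose, with a median log2 change of -0.68. Rasgrp1, which turns diacylglycerol into RAS activation, was at 85.2 and 84.4 CPM in activated cells, against 514 and 501 CPM in resting cells (log2 change -2.58 ± 0.042 SE, adjusted p = 1.1e-48). Prkcq (-1.69), Fyn (-1.4), Plcg1 (-1.35) and Zap70 (-1.22) also fell. Against this direction Cd6, a co-receptor, rose to 199.6 and 202 CPM in activated cells, against 70.4 and 66.4 CPM in resting cells. Ptprc, which encodes CD45, the phosphatase that keeps LCK ready, was among the 10 largest losses in CPM, at 1447 and 1444 CPM in activated cells, against 3077 and 2997 CPM in resting cells. Diacylglycerol kinase Dgka (-1.57) and the ubiquitin ligase Rnf128 (-2.56), both restraints on the same pathway, fell too. Of the 12 listed ubiquitin ligases and diacylglycerol kinases 9 fell and 2 rose, with a median of -0.28.

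Calcineurin and NFAT genes were lower as well. Of 12 tested members 8 fell and 2 rose, with a median log2 change of -0.36, among them Ppp3ca (-1.2), a calcineurin catalytic subunit, Nfatc2 (-1.16) and Nfatc1 (-1.13). Rcan1, a calcineurin inhibitor and NFAT target, was not called, at 7.75 and 8.48 CPM in activated cells, against 6.59 and 8.13 CPM in resting cells.

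Transcription factors of the activation programme were higher at this time. Of 18 EGR and AP-1 genes 13 rose and 3 fell, with a median log2 change of 0.80. Egr2 was at 44 and 39.5 CPM in activated cells, against 1.93 and 1.94 CPM in resting cells (log2 change 4.43 ± 0.14 SE, adjusted p = 2.6e-35). Atf3 was at 147 and 149 CPM in activated cells, against 5.07 and 6.46 CPM in resting cells (log2 change 4.69 ± 0.079 SE, adjusted p = 7.2e-48), and Batf3 rose (4.08). Egr1, an immediate-early gene, moved the other way, at 72.6 and 71 CPM in activated cells, against 158 and 166 CPM in resting cells (log2 change -1.17 ± 0.046 SE, adjusted p = 4.3e-30), and Jun fell (-0.57). The EGR genes therefore did not move together, with Egr2 and Egr3 (3.7) higher and Egr1 lower.

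All 3 NR4A genes, which encode orphan nuclear receptors induced by receptor signalling, rose. Nr4a1 was at 112 and 113 CPM in activated cells, against 2.73 and 3.79 CPM in resting cells (log2 change 5.12 ± 0.095 SE, adjusted p = 7.6e-46). Nr4a3 was at 331 and 312 CPM in activated cells, against 23.5 CPM in both libraries of resting cells (log2 change 3.78 ± 0.052 SE, adjusted p = 7.8e-52). Nr4a2 rose (4.42). Tox, a factor linked with exhausted T cells, was lower and near the limit of detection, at 0.408 and 0.53 CPM in activated cells, against 5.87 and 6.28 CPM in resting cells (log2 change -3.69 ± 0.31 SE, adjusted p = 4.0e-16). Of the 9 tested NR4A, TOX and exhaustion-linked factors 5 rose and 3 fell, with a median log2 change of 0.94.

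Of 15 NF-kB subunits and feedback genes 14 were higher and 0 lower, with a median log2 change of 0.95. Nfkbia, the inhibitor that NF-kB itself induces, was at 148 and 153 CPM in activated cells, against 24.7 and 24.2 CPM in resting cells (log2 change 2.62 ± 0.062 SE, adjusted p = 2.2e-40). Rel, the c-Rel subunit of lymphocytes, was at 237 and 228 CPM in activated cells, against 46.4 and 48.9 CPM in resting cells (log2 change 2.29 ± 0.050 SE, adjusted p = 1.4e-42). Nfkb2 (2.36) and the ubiquitin editor Tnfaip3 (2.01) also rose. Rela was the member that was not called, at 116 and 118 CPM in activated cells, against 119 and 118 CPM in resting cells.

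Factors that set the CD8 effector state were called about as often in either direction. Of 20 such genes 9 (45%) rose and 10 (50%) fell, against 35.3% and 39.1% of all tested genes, with a median log2 change of -0.18. The balance of the directions was thus near that of all tested genes. By 2-fold or more, 5 of the 20 rose and 7 fell, against 12.2% and 15.8% of all tested genes. Irf4, which scales with the strength of the receptor signal, was at 1036 and 1040.0 CPM in activated cells, against 241 and 234 CPM in resting cells (log2 change 2.13 ± 0.036 SE, adjusted p = 6.5e-48). Irf8 was at 388 and 377 CPM in activated cells, against 131 and 132 CPM in resting cells (log2 change 1.54 ± 0.040 SE, adjusted p = 8.2e-39). Zeb2 rose (5.19), as did Zbtb32 (1.16). Eomes, a T-box factor of memory and effector cells, was at 86.9 and 89.1 CPM in activated cells, against 182 and 188 CPM in resting cells (log2 change -1.07 ± 0.045 SE, adjusted p = 4.7e-29), and Ets1 (-1.43) and Gata3 (-1.22) also fell. Runx3 was not called, at 255 and 243 CPM in activated cells, against 235 and 255 CPM in resting cells. Batf, the partner of IRF4, rose to 52.6 and 51.2 CPM in activated cells, against 30.8 and 34 CPM in resting cells.

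Activation receptors rose over a high resting level. Il2ra, the alpha chain of the IL-2 receptor, was at 5604 and 5745 CPM in activated cells, against 1343 and 1295 CPM in resting cells (log2 change 2.11 ± 0.032 SE, adjusted p = 3.2e-50). Tnfrsf9, which encodes the costimulator 4-1BB, was at 2399 and 2436 CPM in activated cells, against 1002 and 977 CPM in resting cells (log2 change 1.29 ± 0.031 SE, adjusted p = 3.4e-40). Tnfrsf4, which encodes OX40, was at 397 and 410.1 CPM in activated cells, against 13.9 and 13.6 CPM in resting cells (log2 change 4.87 ± 0.058 SE, adjusted p = 3.8e-55), a larger change from a lower level. Of 24 costimulatory and TNF superfamily genes 12 rose and 9 fell, with a median log2 change of 0.42. Cd70, the ligand of CD27, was at 3.38 and 2.95 CPM in activated cells, against 0 CPM in both libraries of resting cells, at least 24.8-fold higher over the same floor. Crtam (4.4), Cd40lg (3.34) and Tnfrsf8 (3.04), which encodes CD30, also rose. Cd28, the classical costimulator, fell to 201 and 204 CPM in activated cells, against 339 and 335 CPM in resting cells, and Slamf6, a receptor of stem-like cells, to 1.22 and 0.909 CPM in activated cells, against 17 and 13.3 CPM in resting cells. Icos was not called, at 208 and 221 CPM in activated cells, against 235 and 218 CPM in resting cells.

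Inhibitory receptors were called in both directions, with 9 of 16 (56.25%) higher and 7 (43.75%) lower, against 35.3% and 39.1% of all tested genes. Their median log2 change was 0.52. By 2-fold or more, 6 of the 16 were higher and 6 lower, against 12.2% and 15.8% of all tested genes. Tigit was at 145 and 152 CPM in activated cells, against 22.9 and 20.9 CPM in resting cells (log2 change 2.75 ± 0.059 SE, adjusted p = 6.2e-43). Lag3 was at 379 and 389 CPM in activated cells, against 136 and 139 CPM in resting cells (log2 change 1.48 ± 0.039 SE, adjusted p = 1.5e-38). Ctla4 was at 501 and 499 CPM in activated cells, against 186 and 191 CPM in resting cells (log2 change 1.41 ± 0.038 SE, adjusted p = 2.9e-38). These 3 rose by more than 2-fold, while Pdcd1, which encodes PD-1, was at 40.8 and 40.7 CPM in activated cells, against 23.1 and 24.3 CPM in resting cells (log2 change 0.78 ± 0.073 SE, adjusted p = 2.1e-14), and Havcr2 rose (0.59). Cd200, a ligand, had the largest rise of the list, to 93 and 91.3 CPM in activated cells, against 0.724 and 0.831 CPM in resting cells. Lair1 (-3.51), Cd160 (-2.4) and Vsir (-2.19), which encodes VISTA, fell.

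Receptors for cytokines other than IL-2 were mostly lower. Of 24 tested cytokine receptors 16 fell and 5 rose, with a median log2 change of -0.48. Ifngr1, which binds interferon gamma, was at 114 and 122 CPM in activated cells, against 629 and 617 CPM in resting cells (log2 change -2.4 ± 0.040 SE, adjusted p = 5.9e-48). Its partner Ifngr2 (-1.84) and the type I interferon receptor genes Ifnar1 (-1.17) and Ifnar2 (-1.66) fell too. Il6ra had the largest fall of the list, to 0.117 and 0.151 CPM in activated cells, against 2.25 and 2.22 CPM in resting cells, and Il18rap (-2.26) and Tgfbr2 (-1.69) fell. Il1r2, a decoy receptor, rose to 25.1 and 23.3 CPM in activated cells, against 3.38 and 2.03 CPM in resting cells. Among 22 SOCS, STAT, JAK and PIM genes 12 (54.5%) rose and 9 (40.9%) fell, with a median of 0.10. Over all tested genes 35.3% rose and 39.1% fell. Stat5a (3.15) and Stat3 (1.7) were higher, while Jak1 (-1.23) was lower.

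Interferon-stimulated genes were lower, although Ifng itself was far higher in the same libraries. Of 28 such genes 26 fell, 23 of them by 2-fold or more, and 2 rose, with a median log2 change of -2.11. Irf1, a factor that interferon gamma induces, was at 40.2 and 34.8 CPM in activated cells, against 242 and 236 CPM in resting cells (log2 change -2.66 ± 0.052 SE, adjusted p = 8.3e-45). Iigp1, a GTPase against intracellular parasites, was at 11.3 and 13 CPM in activated cells, against 213 and 208 CPM in resting cells (log2 change -4.13 ± 0.065 SE, adjusted p = 3.8e-49). Gbp2, a guanylate-binding protein, was at 48.4 and 47.8 CPM in activated cells, against 419.9 and 401 CPM in resting cells (log2 change -3.09 ± 0.045 SE, adjusted p = 7.2e-51). Rtp4 (-4.62), Ifit3 (-3.81) and Oasl2 (-3.46) had the largest falls of the list besides Iigp1. Gbp5 (0.56) and Bst2 (0.54) were the members that rose.

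The same class stood among the largest falls. Of the 15 genes with the largest fall at 10 CPM or more, 5 are interferon-inducible Ifi genes or Ifit1bl1. Ifi203, a DNA-binding HIN protein gene of mouse, was at 2.97 and 2.35 CPM in activated cells, against 137 and 126 CPM in resting cells (log2 change -5.6 ± 0.10 SE, adjusted p = 1.8e-45). Ifi208 fell to 0.816 and 0.606 CPM in activated cells, against 81.8 and 81.1 CPM in resting cells, and Ifi213 to 0.641 and 0.53 CPM in activated cells, against 40.4 and 45.9 CPM in resting cells. Cd7, a receptor of T and NK cells, was also among the 15 largest falls, at 0.408 and 0.833 CPM in activated cells, against 36.1 and 33.9 CPM in resting cells (log2 change -5.86 ± 0.18 SE, adjusted p = 3.8e-35), with Calhm6 (-6.08), Pld4 (-5.6) and Igsf5 (-5.2). The Ifi genes are close copies in a cluster on chromosome 1, so their counts may leave out reads that match several of them. MHC class I presentation genes fell in 13 of 15 and rose in 1, with a median of -0.70, among them Nlrc5 (-1.57), the master regulator, Tap1 (-1.17) and B2m (-0.62), and H2-T23 (0.37) rose.

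Homing receptors fell. Of 23 tested homing and adhesion receptors 15 fell and 3 rose, with a median log2 change of -0.79. Cxcr3, which guides effector T cells to inflamed tissue, was at 1.52 and 1.14 CPM in activated cells, against 49.1 and 46.7 CPM in resting cells (log2 change -5.14 ± 0.15 SE, adjusted p = 4.3e-37). Itga1, the alpha chain of a collagen receptor, fell (-4.94). Itgae, the alpha chain of CD103, was at 4.49 and 4.16 CPM in activated cells, against 71.2 and 68.4 CPM in resting cells (log2 change -4.0 ± 0.10 SE, adjusted p = 3.6e-39). Itgb7, the beta chain that pairs with it, was at 62.4 and 59.9 CPM in activated cells, against 621 and 615 CPM in resting cells (log2 change -3.33 ± 0.044 SE, adjusted p = 9.3e-53). Cdh1, which encodes E-cadherin, the ligand of that pair, was among the 15 largest falls, at 1.28 and 1.89 CPM in activated cells, against 66.1 and 68.2 CPM in resting cells. Ccr2 (-3.06) and Cxcr6 (-2.33) also fell. Ccr7, the lymph node homing receptor, was higher, at 482 and 489 CPM in activated cells, against 121 and 128 CPM in resting cells (log2 change 1.96 ± 0.042 SE, adjusted p = 8.1e-43), as were Ccr4 (2.13) and Cd44 (1.6). Cd69, an early activation marker, was not called, at 115 and 112 CPM in activated cells, against 119 and 117 CPM in resting cells.

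Genes of quiescent, naive and memory T cells were lower. Of 19 tested naive and memory genes 15 fell and 4 rose, with a median log2 change of -0.79. Tcf7, which encodes TCF-1, was at 34.8 and 34.5 CPM in activated cells, against 208 and 209 CPM in resting cells (log2 change -2.59 ± 0.056 SE, adjusted p = 3.1e-42). Klf2, a quiescence factor, was at 1.05 and 0.53 CPM in activated cells, against 14.6 and 14.5 CPM in resting cells (log2 change -4.13 ± 0.22 SE, adjusted p = 5.4e-24), and its log2 change was -4.74 without the first activated library. Id3 was at 0.70 and 1.29 CPM in activated cells, against 30.5 and 31 CPM in resting cells (log2 change -4.99 ± 0.18 SE, adjusted p = 4.4e-32). Against this direction Myb (1.84) and Satb1 (1.17) rose. Of 19 FOXO-linked quiescence genes 17 fell and 2 rose, with a median of -1.11. Pik3ip1, an inhibitor of PI3 kinase, was at 2.91 and 2.12 CPM in activated cells, against 49.7 and 51.3 CPM in resting cells (log2 change -4.29 ± 0.12 SE, adjusted p = 6.4e-37), and Txnip, a brake on glucose uptake, at 114 and 115 CPM in activated cells, against 594 and 568 CPM in resting cells (log2 change -2.35 ± 0.039 SE, adjusted p = 5.2e-48). Cdkn1b, which encodes the cell cycle inhibitor p27, fell to 41.1 and 41.6 CPM in activated cells, against 173 and 179 CPM in resting cells.

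**Figure D4:**
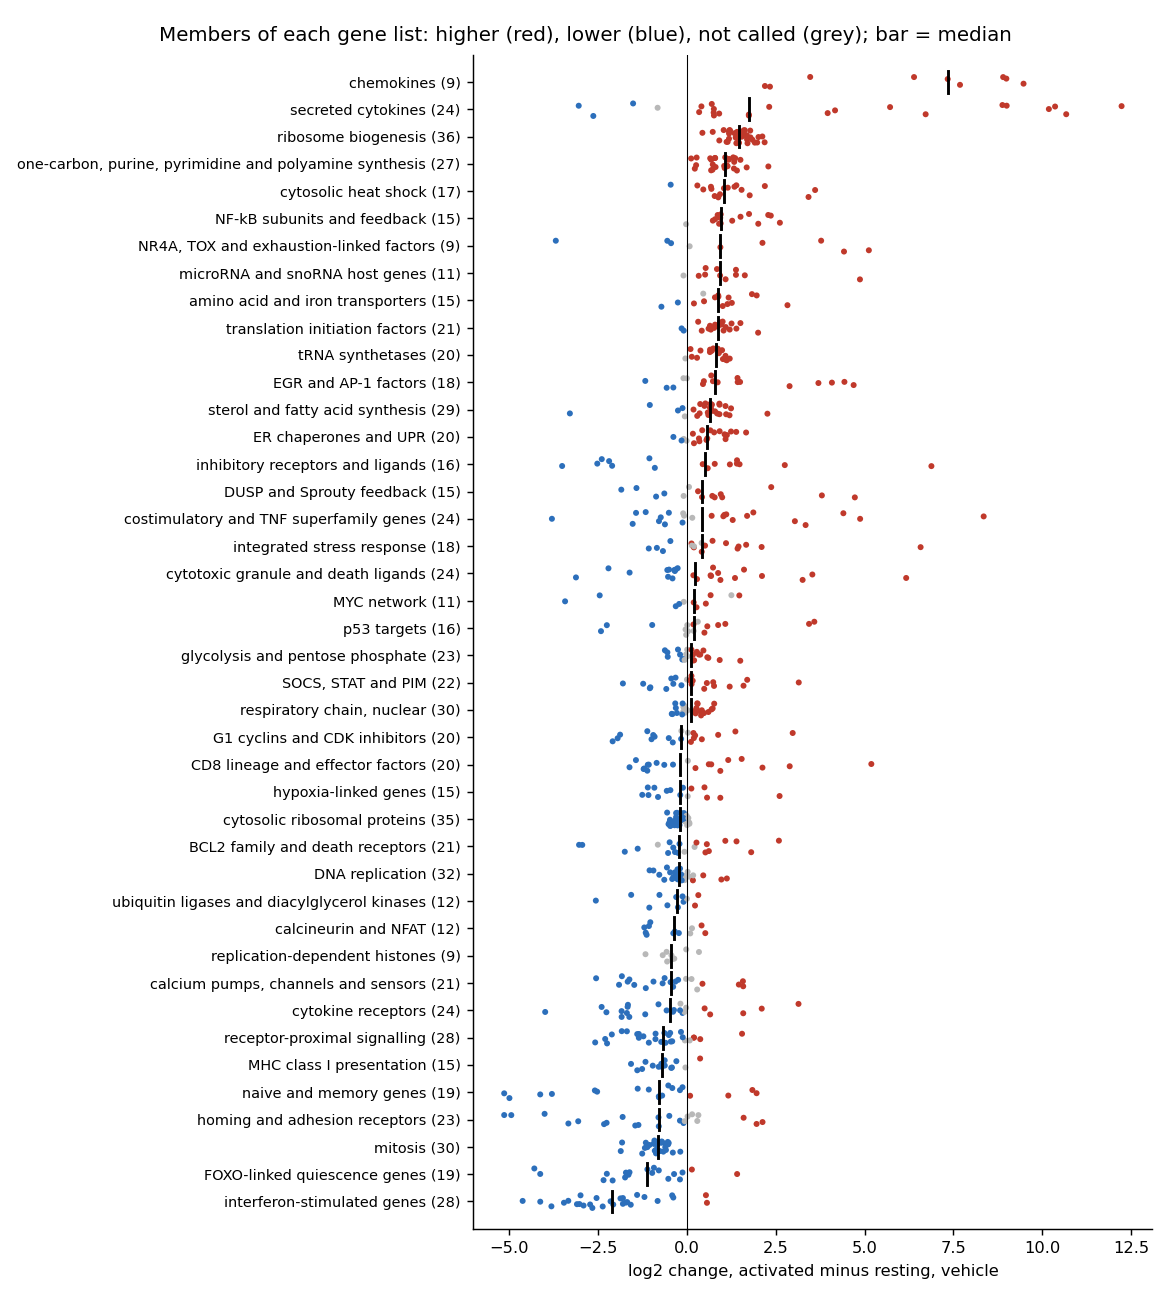
Log2 change (activated minus resting, x axis) of every tested member of 42 gene lists of 9 or more members (rows, number of members in brackets), with members higher in red, lower in blue and not called in grey, and the list median as a black bar. Medians run from 7.34 for chemokines to -2.11 for interferon-stimulated genes, and ribosome biogenesis and mitosis have all of their members on a single side. Points of genes without a resting count are fitted values that depend on the prior count.

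Set against the 35.3% of all tested genes that were higher and the 39.1% that were lower, the gene lists stood at different distances. Members higher made up 100% of ribosome biogenesis, 95% of tRNA synthetases, 93.3% of NF-kB genes, 83.3% of secreted cytokines and 72.2% of EGR and AP-1 factors. They made up 100% of chemokines, of which 9 of 13 listed were tested. Members without a resting count, such as Ccl22 and Il22, passed the filter only through other groups and could not be called lower. The shares of chemokines and cytokines are thus partly set by the filter. Members lower made up 100% of mitosis, 92.9% of interferon-stimulated genes, 89.5% of FOXO-linked quiescence genes and 78.6% of receptor-proximal signalling. Near the shares of all genes were the MYC network, with 45.5% higher and 36.4% lower, and the costimulatory genes, with 50% higher and 37.5% lower. By 2-fold or more, 11 of the 24 costimulatory genes were higher, against 12.2% of all tested genes.

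Ribosome biogenesis genes rose throughout. All 36 genes rose, 33 of them by 2-fold or more, with a median log2 change of 1.48. Rrp12, an export factor of ribosomal subunits, was at 168 and 171 CPM in activated cells, against 35.9 and 38.8 CPM in resting cells (log2 change 2.19 ± 0.053 SE, adjusted p = 3.2e-40). Ncl, which encodes nucleolin, was at 3192 and 3383 CPM in activated cells, against 1309 and 1230.5 CPM in resting cells (log2 change 1.37 ± 0.034 SE, adjusted p = 4.9e-39). Nolc1 (1.98), Nop16 (2.01) and Polr1b (1.91), a subunit of RNA polymerase I, also rose. The list took 1.25% and 1.29% of counts in activated, against 0.480% and 0.468% in resting libraries. Myc, whose product drives such genes, was at 569 and 556 CPM in activated cells, against 194 and 211 CPM in resting cells (log2 change 1.47 ± 0.039 SE, adjusted p = 2.3e-38). Of its network of 11 tested genes 5 rose and 4 fell, with a median of 0.19. Mxd4 (-2.45) and Mxd3 (-3.43), which encode repressors that compete for the same partner, fell.

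The proteins of the ribosome itself did not rise with its assembly factors. Of 35 cytosolic ribosomal protein genes 28 fell and 0 rose, none by 2-fold, with a median log2 change of -0.21. Rps19 was at 324 and 311 CPM in activated cells, against 464 and 471 CPM in resting cells (log2 change -0.56 ± 0.037 SE, adjusted p = 5.9e-20). The elongation factor genes Eef1a1, at 6052 and 6278 CPM in activated cells, against 8268 and 7920.4 CPM in resting cells, and Eef2, at 6274 and 6287 CPM in activated cells, against 7531 and 7436 CPM in resting cells, were among the 10 largest losses in CPM. With no filter on low counts the changes of all genes shift upward by a median of 0.10, and 5 of the 35 members are then called higher.

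Initiation factors and amino acid supply rose. Of 21 translation initiation factors 19 rose and 2 fell, with a median log2 change of 0.88. Eif4e, which binds the mRNA cap, was at 141 and 151 CPM in activated cells, against 49.8 and 52.7 CPM in resting cells (log2 change 1.51 ± 0.051 SE, adjusted p = 3.2e-33). Of 20 aminoacyl-tRNA synthetases 19 rose and 0 fell, with a median of 0.81, and Hars had the largest change (1.2). Amino acid and iron transporters rose in 12 of 15 and fell in 2, with a median of 0.89. Slc7a5, the leucine transporter subunit, was at 629 and 638 CPM in activated cells, against 290.0 and 284 CPM in resting cells (log2 change 1.14 ± 0.036 SE, adjusted p = 8.8e-35), and Tfrc, the transferrin receptor, rose (1.26).

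Synthesis of nucleotides, one-carbon units and polyamines rose throughout, with all 27 members higher and a median log2 change of 1.06. Srm, which encodes spermidine synthase, was at 320.4 and 325 CPM in activated cells, against 68.2 and 63.3 CPM in resting cells (log2 change 2.29 ± 0.046 SE, adjusted p = 3.0e-44). Shmt1 (1.68), Ctps (1.51) and Cad (1.41), which starts pyrimidine synthesis, followed. Odc1, the rate-limiting enzyme of polyamine synthesis, rose (1.19).

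Glycolysis did not move as a whole. Of 23 genes of glycolysis and the pentose phosphate path 12 (52.2%) rose and 7 (30.4%) fell, with a median log2 change of 0.13. Over all tested genes 35.3% rose and 39.1% fell. Hk2, an inducible hexokinase, was at 787 and 785 CPM in activated cells, against 281 and 274 CPM in resting cells (log2 change 1.5 ± 0.035 SE, adjusted p = 7.9e-41). Aldoa, in contrast, was at 2071 and 2087 CPM in activated cells, against 3080.1 and 3003 CPM in resting cells (log2 change -0.55 ± 0.031 SE, adjusted p = 5.3e-23). The glucose transporter genes moved apart, with Slc2a1 (0.34) higher and Slc2a3 (-0.62) lower. Nuclear genes of the respiratory chain rose in 15 (50%) of 30 and fell in 7 (23.3%), with a median of 0.10. All 7 tested mitochondrial mRNAs rose, with a median of 0.35. These 7 made up 1.65% and 1.6% of counts in activated, against 1.33% and 1.28% of counts in resting libraries. The other 6 of the 13 listed mitochondrial mRNAs, among them mt-Co2 and mt-Co3, had no count in any of the 4 libraries. The share is therefore a partial sum of mitochondrial mRNA. Hypoxia-linked genes fell in 9 (60%) of 15 and rose in 5 (33.3%), with a median of -0.19. Hif1a, however, was at 1162 and 1203 CPM in activated cells, against 616 CPM in both libraries of resting cells.

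Sterol and fatty acid synthesis rose in 24 of 29 genes and fell in 4, with a median log2 change of 0.66. Scd1, which makes monounsaturated fatty acids, was at 263 and 279 CPM in activated cells, against 57.1 and 55.4 CPM in resting cells (log2 change 2.27 ± 0.047 SE, adjusted p = 1.9e-43). Fasn, the fatty acid synthase gene, rose (1.1). The cholesterol exporter gene Abcg1 fell (-3.29) to 3.67 and 4.16 CPM in activated cells, against 37.7 and 38.7 CPM in resting cells, and Abca1 fell too (-1.04).

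Cell division genes were lower in activated cells. All 30 tested mitosis genes fell, 8 of them by 2-fold or more, with a median log2 change of -0.83. Ccnb2, a mitotic cyclin, was at 33.7 and 33.4 CPM in activated cells, against 119 and 118 CPM in resting cells (log2 change -1.82 ± 0.058 SE, adjusted p = 1.0e-34). Mki67, the proliferation marker, was at 475 and 433 CPM in activated cells, against 831 and 829 CPM in resting cells (log2 change -0.87 ± 0.085 SE, adjusted p = 4.3e-05). Top2a, which untangles chromosomes, was at 650.0 and 652 CPM in activated cells, against 1238 and 1216 CPM in resting cells (log2 change -0.91 ± 0.033 SE, adjusted p = 6.2e-32). Each remained well expressed in both groups. Of 32 DNA replication genes 22 fell and 4 rose, with a median of -0.22, led by Tk1 (-1.05) and Cdt1 (-0.94), while Orc1 (1.12) and Rfc3 (0.97) rose. Of 9 tested replication-dependent histones 0 were called by edgeR or DESeq2, and 0 had an unadjusted p below 0.05 with edgeR. Of 20 G1 cyclins and CDK inhibitors 8 (40%) rose and 10 (50%) fell, near the shares over all tested genes. Ccnd2, a D-type cyclin, was at 2835 and 2899 CPM in activated cells, against 1130.3 and 1097 CPM in resting cells (log2 change 1.36 ± 0.033 SE, adjusted p = 2.0e-40), and Cdkn2c fell (-1.95).

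Chaperones rose in both compartments. In the endoplasmic reticulum 16 of 20 genes rose and 2 fell, with a median log2 change of 0.56. Hspa5, the chief chaperone there, was at 1834 and 1897 CPM in activated cells, against 726 and 700.4 CPM in resting cells (log2 change 1.39 ± 0.033 SE, adjusted p = 1.4e-40), and Hyou1 rose (1.67). Xbp1 was not called, at 162 and 166 CPM in activated cells, against 164 and 166 CPM in resting cells. In the cytosol 16 of 17 heat shock genes rose and 1 fell, with a median of 1.04. Hspa1a, an inducible HSP70 gene, was at 1.57 and 1.82 CPM in activated cells, against 0.0804 and 0.185 CPM in resting cells on 3 resting counts, with a 95% exact counting interval of the ratio of 4.21 to 65.3, and is a near-copy of Hspa1b. Hspd1, a mitochondrial chaperonin gene on that list, was at 889 and 898 CPM in activated cells, against 204 and 186 CPM in resting cells (log2 change 2.19 ± 0.039 SE, adjusted p = 8.4e-47). The integrated stress response was mixed, with 11 of 18 higher and 4 lower and a median of 0.42. Asns (1.43) rose, and Trib3 (-1.07) and Ddit3 (-0.84), which encodes CHOP, fell.

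The pumps that TG blocks in other groups of the series were themselves changed by activation with vehicle. Atp2a2, which encodes SERCA2 (chr5:122453513-122502225), was at 664 and 687 CPM in activated cells, against 225 and 226 CPM in resting cells (log2 change 1.58 ± 0.036 SE, adjusted p = 1.2e-41). Atp2a3, which encodes SERCA3, was at 78.9 and 80.9 CPM in activated cells, against 471 and 467 CPM in resting cells (log2 change -2.55 ± 0.042 SE, adjusted p = 2.3e-48). The SERCA genes moved in opposite directions. Per kilobase of exon Atp2a2 was at 111 CPM per kb in activated and 37.1 CPM per kb in resting cells, and Atp2a3 at 15.1 CPM per kb in activated and 88.8 CPM per kb in resting cells. Of 21 calcium pumps, channels and sensors 14 fell and 4 rose, with a median log2 change of -0.46. Itpr1, a calcium release channel, rose to 376 and 363 CPM in activated cells, against 124 CPM in both libraries of resting cells, while Itpr3 (-1.62) and the store sensor gene Stim1 (-1.16) fell.

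Survival genes were called in both directions at shares near those of all genes. Of 21 tested genes of the BCL2 family and death receptors 8 (38.1%) rose and 10 (47.6%) fell, against 35.3% and 39.1% of all tested genes, with a median log2 change of -0.21. Bcl2l11, which encodes the death inducer BIM, was at 23.3 and 23.9 CPM in activated cells, against 194 and 193 CPM in resting cells (log2 change -3.03 ± 0.055 SE, adjusted p = 2.1e-46). Bcl2, which opposes it, was at 340.0 and 346 CPM in activated cells, against 897 and 894 CPM in resting cells (log2 change -1.38 ± 0.035 SE, adjusted p = 1.6e-39). Bcl2l1, which encodes BCL-XL, was at 306 and 308 CPM in activated cells, against 116 and 118 CPM in resting cells (log2 change 1.4 ± 0.041 SE, adjusted p = 5.2e-36). Bmf (-2.94) and Bbc3 (-1.75) fell, and Bcl2a1b rose by 1.81 within a family of close copies. Among 16 p53 targets 7 rose and 3 fell, with a median of 0.19, with Gadd45b (3.58) and Plk2 (3.44) at the top. MAP kinase feedback genes rose in 9 of 15 and fell in 4, with a median of 0.43. Dusp6, the ERK phosphatase, was at 59 and 57.2 CPM in activated cells, against 211 and 207 CPM in resting cells (log2 change -1.85 ± 0.048 SE, adjusted p = 5.4e-39), whereas Dusp4 (2.37) rose.

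Hosts of small RNAs rose in 10 of 11 tested genes and fell in 0, with a median log2 change of 0.93. Mir155hg, the host transcript of miR-155 (chr16:84703167-84715245), was at 72.3 and 68.6 CPM in activated cells, against 2.73 and 2.03 CPM in resting cells (log2 change 4.87 ± 0.12 SE, adjusted p = 1.0e-39). Mir17hg, the host of the miR-17 cluster (chr14:115042879-115046727), was at 17.2 and 15.4 CPM in activated cells, against 7.32 and 8.13 CPM in resting cells (log2 change 1.09 ± 0.12 SE, adjusted p = 2.1e-11). The counts are of the host transcripts, and mature microRNAs were not measured. The mature sequences that these hosts carry are shown from RefSeq (GRCm38.p6, plus strand of both chromosomes) to give their seeds, bases 2 to 8, in capitals:
miR-155-5p: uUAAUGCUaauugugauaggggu
miR-17-5p: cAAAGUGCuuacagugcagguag
miR-18a-5p: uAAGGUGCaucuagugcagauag
miR-19a-3p: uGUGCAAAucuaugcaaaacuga
miR-19b-3p: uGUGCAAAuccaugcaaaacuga
miR-20a-5p: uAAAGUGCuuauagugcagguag
miR-92a-3p: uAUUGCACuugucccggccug
In these letters miR-17-5p and miR-20a-5p share the seed AAAGUGC, and miR-19a-3p and miR-19b-3p share the seed GUGCAAA, while miR-18a-5p, miR-92a-3p and miR-155-5p have seeds of their own. The miR-155 product is known in mouse T cells for its support of effector responses. Socs1, a known target of it, was at 61.1 and 61.6 CPM in activated cells, against 79.2 and 105 CPM in resting cells (-0.58). The resting libraries of Socs1 lay apart, and its call ended without the first activated library. Other targets were not examined, and whether the microRNA had a part in the level of Socs1 was not tested.

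The genes of the lists, and those that changed by 2-fold or more, were also compared by their promoters. Lists were drawn up by known function, and some around a regulator, such as the FOXO-linked genes. Shares of a word within a list are thus not independent of the choice of lists, and they do not depend on how its genes changed. RefSeq windows from 250 bases before to 50 bases after a start (GRCm38.p6) were searched on both strands for fixed words, in the 7676 tested genes with a single window. The CHR word TTTGAA, an element of mitotic genes, was in 12% of all windows, in 70.8% of 24 mitosis windows and in 13% of 23 replication windows. It was as frequent in the 10 windows of the BCL2 family and death receptors, at 70%, and was in 43.8% of 16 windows of interferon-stimulated genes. The CCAAT word was in 39.6% of all windows and in 79.2% of the mitosis windows, which fell, but also in 88.2% of 17 ER chaperone windows and 82.4% of 17 sterol synthesis windows, lists that mostly rose. E2F words (TTTCCCGC or TTTGGCGC) were in 3.32% of all windows and 39.1% of replication windows, in 18.2% of 11 MHC class I windows and in 0% of mitosis windows. The E-box CACGTG, the site of MYC and related factors, was in 10.4% of all windows, in 34.5% of 29 ribosome biogenesis windows, in 33.3% of 12 tRNA synthetase windows and in 40% of 10 p53 target windows. An ATF4 word TGATGNAA was in 2.15% of all windows, in 41.7% of 12 tRNA synthetase windows and in 33.3% of 15 windows of the integrated stress response. The AP-1 word TGANTCA was in 4.62% of all windows and in 15.8% of 19 cytokine windows, but in 31.2% of 16 windows of interferon-stimulated genes, which mostly fell, and in 30.8% of 13 costimulatory windows. Among genes that changed by 2-fold or more, the E-box was in 13.7% of 926 windows that rose and 8.2% of 1147 that fell, and the AP-1 word in 5.51% that rose and 7.41% that fell. The FOXO word TGTTTAC was in 1.84% that rose and 3.75% that fell, and the CRE word TGACGTCA in 3.35% that rose and 1.92% that fell. None of these shares was tested. These matches are a description of letters and not of bound sites.

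In the windows below only the words named for a list are in capitals, and other searched words stay in lower case, such as CACGTG in Iars. Genes on a single chromosome were left out of the choice, so a member with a larger change may be missing. Among the others, windows of members that changed most and hold the word are shown 5′ to 3′ on the gene's strand. For mitosis, these are Ccnb2 and Kif11, with TTTGAA and CCAAT on either strand:
Ccnb2 promoter, chr9:70421505-70421804, minus strand: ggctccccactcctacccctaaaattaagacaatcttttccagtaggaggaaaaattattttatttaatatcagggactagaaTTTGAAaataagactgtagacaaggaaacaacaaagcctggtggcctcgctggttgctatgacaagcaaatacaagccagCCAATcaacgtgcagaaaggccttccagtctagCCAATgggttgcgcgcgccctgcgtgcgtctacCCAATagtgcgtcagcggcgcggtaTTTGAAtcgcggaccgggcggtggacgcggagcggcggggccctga
Kif11 promoter, chr19:37376132-37376431, plus strand: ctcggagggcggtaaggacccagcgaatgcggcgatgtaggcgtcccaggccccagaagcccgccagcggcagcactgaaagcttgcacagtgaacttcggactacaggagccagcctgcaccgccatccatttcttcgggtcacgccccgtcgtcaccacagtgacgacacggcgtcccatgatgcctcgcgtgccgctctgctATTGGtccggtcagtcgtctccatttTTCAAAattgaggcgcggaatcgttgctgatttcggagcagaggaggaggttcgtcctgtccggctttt
Ccnb2 holds 3 CCAAT matches between 2 matches of TTTGAA, all on the strand shown, and Kif11 holds 1 match of each word, both on the opposite strand. For ribosome biogenesis, these are Nop2 (1.84) and Mybbp1a (1.79), with CACGTG:
Nop2 promoter, chr6:125131633-125131932, plus strand: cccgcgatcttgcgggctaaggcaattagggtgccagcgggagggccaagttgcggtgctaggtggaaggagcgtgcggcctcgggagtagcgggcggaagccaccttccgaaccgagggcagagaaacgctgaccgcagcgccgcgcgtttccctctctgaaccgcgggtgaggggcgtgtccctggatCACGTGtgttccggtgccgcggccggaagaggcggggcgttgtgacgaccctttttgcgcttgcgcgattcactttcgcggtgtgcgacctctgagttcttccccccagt
Mybbp1a promoter, chr11:72441077-72441376, plus strand: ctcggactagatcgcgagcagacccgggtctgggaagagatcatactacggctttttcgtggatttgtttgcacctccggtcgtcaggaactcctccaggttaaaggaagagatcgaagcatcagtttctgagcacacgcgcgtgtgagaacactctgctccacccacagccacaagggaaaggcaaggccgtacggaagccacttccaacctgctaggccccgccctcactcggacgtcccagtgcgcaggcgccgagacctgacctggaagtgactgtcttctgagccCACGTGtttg
For the tRNA synthetases and the secreted cytokines, these are Iars (0.99), with TGATGNAA on the opposite strand, and Il6, with TGANTCA near its upstream edge:
Iars promoter, chr13:49681880-49682179, plus strand: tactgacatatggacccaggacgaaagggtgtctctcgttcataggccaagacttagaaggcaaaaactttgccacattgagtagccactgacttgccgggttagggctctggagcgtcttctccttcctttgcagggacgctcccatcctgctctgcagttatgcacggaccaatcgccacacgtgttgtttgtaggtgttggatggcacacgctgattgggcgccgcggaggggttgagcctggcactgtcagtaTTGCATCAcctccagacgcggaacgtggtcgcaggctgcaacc
Il6 promoter, chr5:30012864-30013163, plus strand: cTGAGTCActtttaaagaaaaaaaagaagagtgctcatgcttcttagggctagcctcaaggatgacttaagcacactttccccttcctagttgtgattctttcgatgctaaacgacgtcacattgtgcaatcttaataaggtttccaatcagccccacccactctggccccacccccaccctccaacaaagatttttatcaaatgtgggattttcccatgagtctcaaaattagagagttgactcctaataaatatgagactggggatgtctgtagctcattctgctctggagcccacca

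The same activation was measured in control cells given TG, in libraries that share no sample with the vehicle comparison. There 4296 genes (32.0%) were higher and 4280 genes (31.9%) were lower in activated cells. Of the 1639 genes that rose by 2-fold or more with vehicle, 1173 (71.6%) were also called higher with TG and 90 were called lower. Of the 2116 that fell by 2-fold or more, 1483 (70.1%) were also called lower with TG and 61 were called higher. Across the 13432 genes the log2 changes had Pearson r = 0.66 and Spearman rho = 0.65, a description over genes, which are not independent replicates. Ribosome biogenesis rose in 36 of 36 and mitosis fell in 29 of 30 with TG too, at medians of 0.77 and -0.89. Other lists are given side by side, with no test of the difference between lists. Chemokines rose in 9 of 9 with vehicle, while 6 rose and 1 fell with TG. Cytosolic ribosomal proteins rose in 0 and fell in 28 of 35 with vehicle, while 17 rose and 4 fell with TG. Homing and adhesion receptors rose in 3 and fell in 15 of 23 with vehicle, while 12 rose and 9 fell with TG. Interferon-stimulated genes rose in 2 and fell in 26 of 28 with vehicle, while 3 rose and 20 fell with TG.

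The size of the activation effect differed between vehicle and TG for many genes, tested as the interaction in the same fit. The effect with vehicle was the more positive in 3383 genes (25.2%) and the more negative in 3588 genes (26.7%). Ifng had a difference of log2 changes of 6.21 ± 0.062 SE, adjusted p = 2.7e-58 (vehicle minus TG). With TG it was at 10397 and 10209 CPM in activated cells with TG, against 1481 and 1502 CPM in resting cells with TG, so its resting level was already far above that of resting cells with vehicle. Xcl1 had the same pattern, with a difference of log2 changes of 8.5 ± 0.089 SE, adjusted p = 1.5e-56 and 913 and 906 CPM in activated cells with TG, against 678 and 701 CPM in resting cells with TG. Rbpms2, whose fitted value depends on the prior count because resting cells with vehicle had no count, Lad1 and Ccl1 completed the 4 largest positive differences. At the other end Sgk1, a kinase of ion transport, was at 12 and 12.1 CPM in activated cells, against 62.5 and 61.2 CPM in resting cells with vehicle and at 50.2 and 47.2 CPM in activated cells with TG, against 16 and 14.9 CPM in resting cells with TG (a difference of log2 changes of -4.01 ± 0.11 SE, adjusted p = 1.3e-35).

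Some genes were called in opposite directions. Egr2 was at 58.4 and 61.4 CPM in activated cells with TG, against 109 and 111 CPM in resting cells with TG, against its rise with vehicle, and had a difference of log2 changes of 5.31 ± 0.15 SE, adjusted p = 2.9e-36. Irf4 was at 909 and 945 CPM in activated cells with TG, against 1274 and 1266 CPM in resting cells with TG (a difference of log2 changes of 2.58 ± 0.048 SE, adjusted p = 1.2e-44). Pdcd1 was at 98.5 and 96.5 CPM in activated cells with TG, against 155 and 163 CPM in resting cells with TG (a difference of log2 changes of 1.49 ± 0.086 SE, adjusted p = 7.2e-22). Gzma fell with vehicle and was at 626 and 642 CPM in activated cells with TG, against 417 and 424 CPM in resting cells with TG (a difference of log2 changes of -1.1 ± 0.048 SE, adjusted p = 6.7e-27). Gzmb rose in both, more with TG, at 6004 and 6013 CPM in activated cells with TG, against 1509 and 1490.0 CPM in resting cells with TG (a difference of log2 changes of -1.06 ± 0.041 SE, adjusted p = 2.6e-29). Serpinb9 rose in both, by 3.53 with vehicle and 3.62 with TG, and the difference was not called (adjusted p = 0.14).

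**Figure D5:**
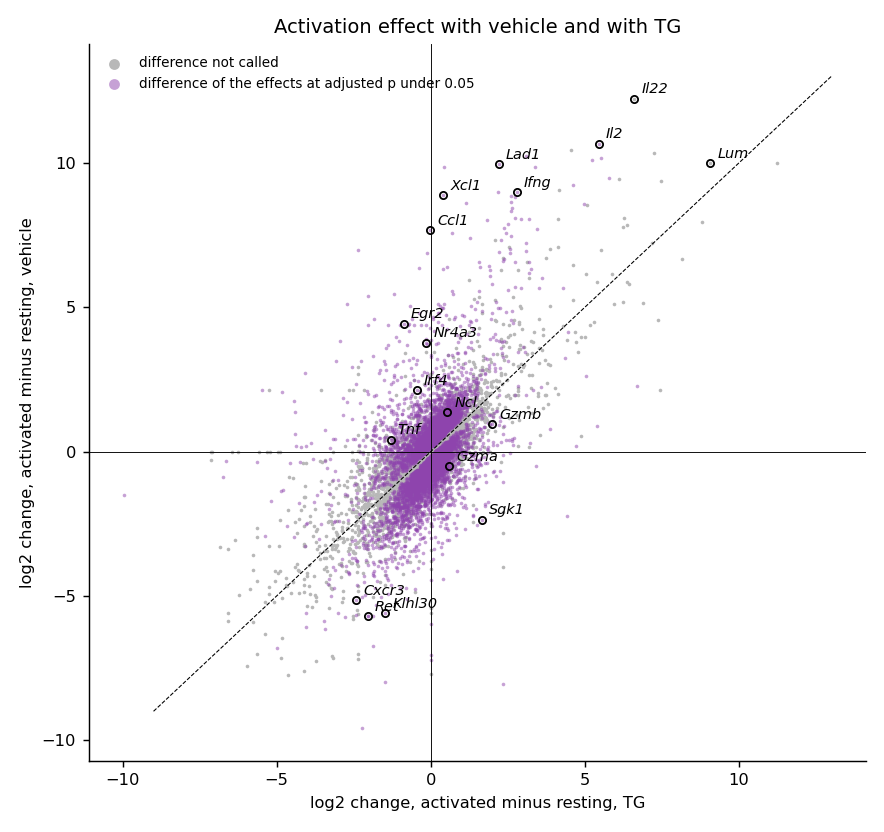
Log2 change on activation with vehicle (y axis) against that with TG (x axis) for the 13432 tested genes, each point a gene; genes whose difference was called are purple, the others grey, and the dashed line marks equal changes. Ifng, Xcl1, Lad1 and Ccl1 lie well above the line, and Gzmb and Sgk1 lie below it.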

How the data were processed

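Total RNA of mouse OT-I/Cas9 CD8 T cells was sequenced from standard Illumina libraries after Trizol extraction, per the labels' protocols. The values are whole-number read counts per gene as the authors deposited them, for 46603 Ensembl identifiers. The submitters' processing notes name STAR 2.6.0c and HTSeq as tools and GRCm38/mm10 as the build; the HTSeq version and settings, the strand and the annotation release are not given in the sources used here. HTSeq by default leaves out reads that match several places, so genes with close copies may be counted in part, and without a stated strand a gene and an overlapping gene on the opposite strand cannot be told apart. Names, coordinates and exon lengths came from GENCODE M21 (GRCm38), and the 512 identifiers without a name held 0.0759% of counts.

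The analysis used edgeR 4.0.16 (R 4.3.3). All 12 T cell libraries (6 groups) were fitted together, with trimmed mean of M values scaling, filterByExpr (13432 genes) and robust quasi-likelihood tests with 6 residual degrees of freedom. The common biological coefficient of variation was 2.8%. Adjustment was by Benjamini-Hochberg over all tested genes, and a gene was called below 0.05. A standard error (SE) is the fitted log2 change over the root of its F statistic. CPM use effective library sizes, and CPM per kb divide by the exon length. Each group has 2 libraries of 11028101 to 17462770 counts. Library pairs of a group differed by more than sampling noise, so none was merged. Replicate numbers showed no clear pairing of the libraries (correlations of deviations from -0.109 to 0.109). With 2 libraries in a group, such weak correlations cannot show that same-numbered libraries share no culture or batch. On simulated counts (12933 genes, 50 changed per fold) the test recovered 66%, 76%, 84% and 100% of changes of 1.25, 1.5, 2 and 4-fold. That test, of activated against resting cells, made 22 false calls. Far fewer genes were changed there than in the real comparison, with 4740 called higher and 5250 called lower. Recovery and false calls with so many changed genes were not tested.

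The comparison, the 53 gene lists and the rule for naming genes were chosen with earlier results of these data known. The text names the 15 called genes with the largest rise and the 15 with the largest fall (no overlap between libraries, 10 CPM or more, gene models left out), the 10 largest gains and losses in CPM, up to 6 called members per list and 2 against its direction, 4 differences from TG each way, and a panel of T cell genes. Some genes that this rule names are not reported here. Promoters and microRNAs came from the RefSeq tables. Genes named for their role after their values were seen are B2m, Csf1, Fyn, Gata3, Iars, Ifnar1, Ifnar2, Il10, Il13, Il4, Il9, Irf1, Mybbp1a, Odc1, Plcg1, Rela, Runx3, Satb1, Stim1, Tgfbr2, Thy1, Top2a, Xbp1, Zap70 and Zbtb32. As alternatives the counts were analysed by DESeq2 1.42.0, with its own scaling in edgeR (RLE), without the filter, with at least 5 CPM in 2 libraries, with replicate number as a block, on fewer or more libraries, and without each library in turn.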

Additional observations from a re-analysis of the deposited data

Results flagged for a closer look

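The effect of activation differed between vehicle and TG by the test of the difference itself, with 3383 positive and 3588 negative differences of 13432 tested genes. The differences below are log2 changes with vehicle minus those with TG. Among genes at 10 CPM or more the largest positive ones were 9.43 for Rbpms2, 8.5 for Xcl1, 7.75 for Lad1 and 7.7 for Ccl1. The fitted values of Rbpms2 and Lad1 depend on the prior count, since resting cells with vehicle had 0 and 2 counts of them. Rbpms2 was at 37.6 and 33.6 CPM in activated cells with TG, against 27.5 and 25.5 CPM in resting cells with TG. Lad1 was at 99.8 and 92.8 CPM in activated cells with TG, against 19.3 and 22.6 CPM in resting cells with TG, and Ccl1 at 85.7 and 91.4 CPM in activated cells with TG, against 88.1 and 91.4 CPM in resting cells with TG. The largest negative ones were -4.12 for Klhl30, -4.01 for Sgk1, -3.72 for Sntb1 and -3.66 for Ret. Klhl30 was at 0.291 and 0.379 CPM in activated cells, against 16 and 16.7 CPM in resting cells with vehicle and at 0 and 0.153 CPM in activated cells with TG, against 0.226 and 0.258 CPM in resting cells with TG, and without the second activated TG library its difference was -0.91 (adjusted p = 0.81, edgeR).

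Genes of the T cell panel that were called in opposite directions with vehicle and with TG had these differences. They were 5.31 for Egr2, 5.14 for Nr4a2, 5.07 for Egr3, 3.92 for Nr4a3 and 2.58 for Irf4. They were 1.71 for Tnf, 1.49 for Pdcd1, 1.22 for Havcr2 and 0.53 for Tbx21. With vehicle the call of Tbx21 ended without the first resting library (log2 change 0.17, adjusted p = 0.055, edgeR, against 0.24 with all libraries). Negative differences were -1.1 for Gzma and -1.61 for Egr1. With 2 libraries in a group no test for a library that stands apart applies.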

How the results depend on the processing

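Counts of called genes stayed within 1.5 times under every alternative. Genes higher ranged from 4170 (5 CPM filter) to 5402 (no filter), and genes lower from 4487 (5 CPM filter) to 5654 (all 20 libraries). By 2-fold or more they ranged from 1159 to 2020 and from 1459 to 2348. DESeq2 called 4332 higher and 4491 lower. Leaving out each of the 4 libraries gave 4440 to 4534 higher and 4870 to 4996 lower. For the difference from TG, counts ran from 2686 to 3838 positive and from 2556 to 3672 negative. The replicate block gave 4722 higher and 5233 lower; the numbers mark no stated pairing. No filter moved all changes by a median of 0.10, with which the sign of 8 small changes turned round, to Il2rb (0.0769), Itgb1 (0.0031), Ndfip1 (0.0042), Pabpc1 (0.0078), Rpl14 (0.0192), Rpl4 (0.0111), Rpl5 (0.0146) and Rpl7 (0.0898). All 43 list medians kept their sign in every alternative run. List counts moved by over 1.5 times in 24 of 1032 recounts, all of them main counts of 7 or fewer members, such as the 2 initiation factors that fell, a count that was 0 with DESeq2. The call of Klhl30 for the difference from TG ended in 1 alternative, as did that of Tbx21 for activation with vehicle. They are not the only such calls. Those of Cish, Pabpc1, Eif4ebp2, Slfn2, Herpud1, Il7r, Socs1, Itga2b, Car9 and Trav14-1 also ended without a library. So did the calls of the difference from TG for Slc2a1, Cish, Prf1 and Ccr7. Most of these changes were small, but those of Itga2b (0.96), Car9 (-1.08) and Trav14-1 (-2.1) were not. Where a list total for activation with vehicle is given above, they are counted in it. Fits with 1 library left in a group assume that it varies like the other groups. Depth limits genes with a few counts in a group, for which folds are given as bounds or counting intervals.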
